A study of Homo sapiens with 6 samples.

Results

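Expression of 10 genes that the transcription factor NF-kB is known to induce was compared between K562 cells with wild-type SF3B1 and K562 cells with SF3B1-K700E. The genes were the secreted cytokines CCL2, IL6, IL1B and CXCL8, the signalling proteins TRAF1 and BIRC3, the inhibitors NFKBIA and TNFAIP3, and the NF-kB subunits NFKB2 and RELB. They were matched by symbol among 62111 genes. The choice of these 10 was made with earlier results of these data known. K562 is a human leukaemia line, derived from chronic myeloid leukaemia in blast crisis, that expresses erythroid genes. SF3B1 is a subunit of the spliceosome that helps to recognise the branch point of introns, and K700E is a recurrent substitution of it in blood cancers. The design holds 3 libraries labelled SF3B1-WT (WT below) and 3 labelled SF3B1-K700E, with no treatment or time given. How the substitution was introduced, and whether either line is 1 clone, is not given in the sources used here.

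NF-kB is a family of dimeric transcription factors that inhibitory IkB proteins hold in the cytoplasm. Receptors for TNF or interleukin 1, acting through adaptors such as the TRAF proteins, activate IkB kinase, which marks the IkB proteins for degradation and frees the dimers to enter the nucleus. The induced genes include cytokines that act on other cells and genes that feed back on the pathway, among them the IkB protein NFKBIA and the ubiquitin-editing enzyme TNFAIP3. A separate branch, through the kinase MAP3K14, processes the NFKB2 precursor into the subunit that pairs with RELB.

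CCL2, IL6, IL1B and TRAF1 were higher in K700E cells, with mean levels 20.9, 2.54, 2.76 and 3.62 times those in WT cells. Levels are in TPM, reads per base of gene length scaled to the same total in every library. Each of these 4 passed a limma adjusted p of 0.05 among 15493 genes tested, of which 1.15% were called higher and 0.232% lower. CXCL8, NFKBIA, TNFAIP3, NFKB2 and RELB, the other 5 members tested, did not pass it, and BIRC3 lay under the level needed for testing. No member was called lower. Genes were tested on log2(TPM + 1) where their mean over the 6 libraries was at least 1 TPM, so a log2 difference understates the change of a low gene. Of the 4 called members, CCL2, IL1B and TRAF1 had a WT mean under 1 TPM and reached the test only through their K700E levels. Among the 615 tested genes of that kind 11.4% were called higher, so the background for those 3 members is not the share over all genes. IL6 alone among the called members was above 1 TPM in every WT library. On log2(TPM + 1) all 4 calls depend on the filter, and without it limma called 0 of 38861 genes (0%). The limma adjusted p was then 0.0696 for CCL2, 0.0818 for IL6, 0.131 for IL1B and 0.109 for TRAF1. In limma-voom on reads recovered from the TPM values, with a filter of its own, all 4 were called higher, as were 1.39% of 22158 genes. Their limma-voom adjusted p ran from 0.0194 to 0.0394, and without WT replicate 3 limma-voom called 0 genes. In bulk RNA, more cells that express a gene and more RNA per cell cannot be told apart.

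Between 104642332 and 136588117 read ends per library were recovered as whole numbers from the TPM values. The labels do not say that replicates are separate cultures, so the p-values measure the spread between these libraries, which may be technical. WT replicate 3 stands apart: its value lay between those of the other WT libraries in 75.9% of tested genes, against 25.7%, 46.3% and 28.0% for the K700E libraries in turn, and in 6 of the 10 members. It lay between them for CCL2 and for 5 members that were not called, but was the lowest WT library for IL6 and IL1B and the highest for TRAF1. Whether WT replicate 3 is independent of the other WT libraries was not tested, and each call is given without it below. Scaling each library by median ratios moved the median log2 difference of all tested genes from 0.13 to -0.00060, so differences near 0.13 are at the level of the whole table. The defining erythroid markers of K562 cells were present in all libraries, with a summed level of 2458 to 4307 TPM in WT and 3436 to 4654 TPM in K700E.

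The letters upstream of 5 members that hold exact or near matches to the kappaB consensus, the motif that NF-kB dimers bind, are shown. NFKB2 also holds exact matches, and its letters are not shown. RefSeq (GRCh38.p14) gave promoters for 8 of the 10 members, and CCL2 and RELB are named only. Each line below is the 250 bases before a start, on the strand of the gene and written 5′ to 3′. Capitals mark matches to the kappaB consensus on either strand. In CXCL8 they mark matches with 1 mismatch, since it has no exact match. The windows are chr7:22726950-22727199 (+) for IL6, chr4:73740319-73740568 (+) for CXCL8, chr11:102317234-102317483 (+) for BIRC3, chr14:35404750-35404999 (-) for NFKBIA and chr6:137867009-137867258 (+) for TNFAIP3.
IL6: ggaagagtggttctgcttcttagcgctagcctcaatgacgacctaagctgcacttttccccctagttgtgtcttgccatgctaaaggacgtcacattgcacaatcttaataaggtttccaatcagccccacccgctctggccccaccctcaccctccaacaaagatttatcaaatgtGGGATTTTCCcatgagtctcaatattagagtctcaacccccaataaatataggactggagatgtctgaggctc
CXCL8: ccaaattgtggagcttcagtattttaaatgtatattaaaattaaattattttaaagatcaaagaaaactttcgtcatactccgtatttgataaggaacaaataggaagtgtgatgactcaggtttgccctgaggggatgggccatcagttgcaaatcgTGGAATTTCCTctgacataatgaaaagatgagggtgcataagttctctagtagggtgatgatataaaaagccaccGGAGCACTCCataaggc
BIRC3: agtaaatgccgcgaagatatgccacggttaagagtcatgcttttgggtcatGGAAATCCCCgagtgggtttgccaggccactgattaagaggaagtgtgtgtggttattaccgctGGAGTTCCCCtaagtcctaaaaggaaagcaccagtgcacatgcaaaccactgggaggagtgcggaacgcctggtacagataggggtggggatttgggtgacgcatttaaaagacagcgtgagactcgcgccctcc
NFKBIA: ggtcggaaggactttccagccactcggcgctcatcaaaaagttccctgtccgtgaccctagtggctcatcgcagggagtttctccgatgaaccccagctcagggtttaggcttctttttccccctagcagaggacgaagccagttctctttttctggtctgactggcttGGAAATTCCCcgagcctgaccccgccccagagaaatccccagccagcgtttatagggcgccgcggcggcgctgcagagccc
TNFAIP3: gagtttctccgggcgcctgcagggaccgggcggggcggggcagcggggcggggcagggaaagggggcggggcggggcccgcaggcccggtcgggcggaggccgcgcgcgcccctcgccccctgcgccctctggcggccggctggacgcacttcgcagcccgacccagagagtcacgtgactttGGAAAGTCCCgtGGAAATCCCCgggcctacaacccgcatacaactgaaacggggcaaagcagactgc

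The 8 members have 12 promoters in the table, since NFKB2 and TRAF1 have 3 each. An exact match was found in 6 of the 12, which belong to IL6, BIRC3, NFKBIA, TNFAIP3 and NFKB2, and in 5.21% of all 35116 promoters of this length. With 1 mismatch allowed, 7 of the 12 and 44.9% of all promoters held a match. The IL6 match GGGATTTTCC lies 73 to 64 bases before the start. BIRC3 holds GGAAATCCCC at 199 to 190 bases and GGAGTTCCCC at 135 to 126 bases. TNFAIP3 holds GGAAAGTCCC and GGAAATCCCC within 67 to 46 bases, and NFKBIA holds GGAAATTCCC at 81 to 72 bases. CXCL8 holds TGGAATTTCC at 92 to 83 bases, with an AP-1 motif (TGANTCA, searched after the sequences were seen and present in 6.57% of promoters) as TGACTCA at 137 to 131 bases. No match with up to 1 mismatch was found in the windows of IL1B or TRAF1, which says only that these letters are not there. Of the genes tested with an exact match, 8 of 767 (1.04%) were called higher, against 90 of 10030 (0.897%) of tested genes with a promoter in the table, with median log2 differences of 0.15 and 0.14.

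The members fell into groups by level, as shown in the plot of TPM by library. In WT the order of mean TPM was NFKBIA (30.4), TNFAIP3 (27.1), NFKB2 (17.2), CXCL8 (10.9), IL6 (1.995), RELB (1.71), IL1B (0.719), TRAF1 (0.437), CCL2 (0.311) and BIRC3 (0.150). Library values of neighbours overlapped for NFKBIA and TNFAIP3, NFKB2 and CXCL8, IL6 and RELB, and TRAF1 and CCL2. In K700E the first 4 kept that order, and CCL2 (6.51) and IL6 (5.06) followed. RELB (3.23), IL1B (1.99), TRAF1 (1.58) and BIRC3 (0.489) came after them. Neighbours overlapped there for TNFAIP3 and NFKB2, for NFKB2 and CXCL8, and for CCL2 and IL6.

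**Figure D1:**
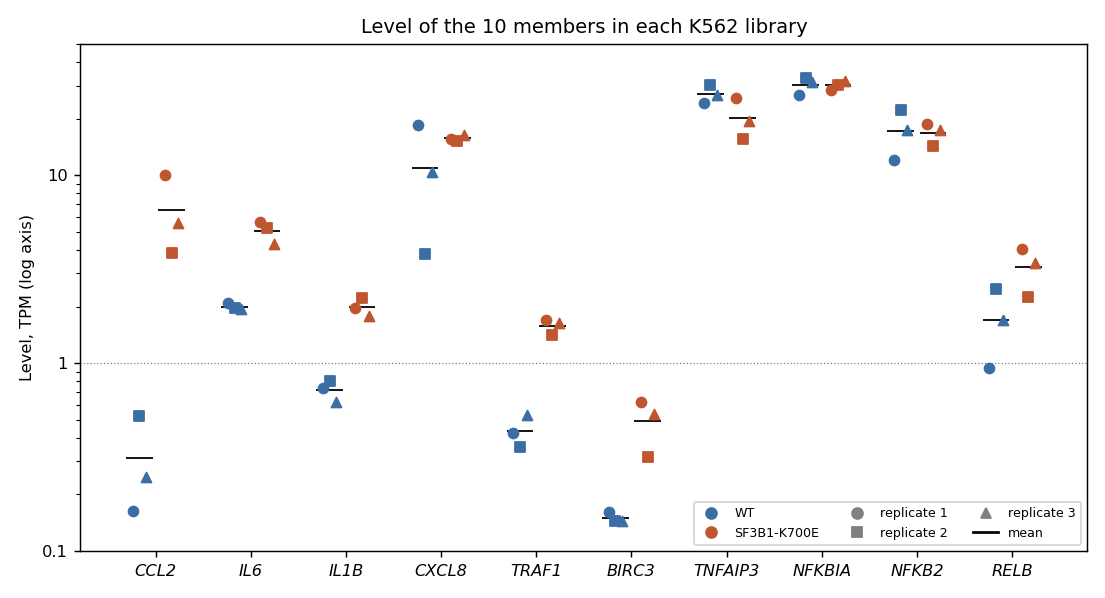
TPM (log axis) of the 10 members in each of the 3 WT and 3 K700E libraries, 1 point per library, with black lines at the means and a dotted line at 1 TPM. CCL2, IL6, IL1B, TRAF1 and BIRC3 have all K700E points above all WT points, while the points of NFKBIA, NFKB2 and TNFAIP3 overlap between genotypes.

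CCL2 encodes a chemokine that draws monocytes (GRCh37 chr17:32582304-32584222, plus strand). WT replicates 1 to 3 held 0.164, 0.524 and 0.246 TPM of its message, and K700E replicates 1 to 3 held 10.1, 3.87 and 5.57 TPM. All K700E libraries were above all WT libraries, and K700E replicate 1 was the highest. Mean TPM was 0.311 ± 0.189 (SD) without and 6.51 ± 3.21 (SD) with the substitution, 3 libraries each, which gives a log2 difference of 2.44 (SE 0.30, 95% interval 1.74 to 3.14) with a limma adjusted p of 0.0168. The WT values rest on 8, 34 and 16 read ends, against 506, 222 and 330 in K700E. The smallest two-sided exact permutation p for 3 against 3 is 0.1, and CCL2 reaches it. Without WT replicate 3 the limma adjusted p was 0.105 at a log2 difference of 2.41.

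IL6 encodes interleukin 6, a cytokine of the acute phase response (GRCh37 chr7:22765503-22771621, plus strand). It stood at 2.08, 1.96 and 1.94 TPM in WT and at 5.64, 5.24 and 4.30 TPM in K700E. The WT libraries lay close together and under every K700E library. Mean TPM was 1.995 ± 0.0757 (SD) without and 5.06 ± 0.686 (SD) with the substitution, 3 libraries each, which gives a log2 difference of 1.01 (SE 0.15, 95% interval 0.65 to 1.37) with a limma adjusted p of 0.0289. Leaving out 1 library kept the call only without WT replicate 1 (limma adjusted p 0.0490), and without WT replicate 3 it was 0.188. The antisense gene IL6-AS1 shares 428 of the 1714 exon bases of IL6. IL6-AS1 stood at 0.388, 0.698 and 0.494 TPM in WT and at 1.85, 2.06 and 0.667 TPM in K700E. The strand setting of the counting is not given in the sources used here, so reads of the pair over those bases cannot be told apart.

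IL1B encodes interleukin 1 beta, which is cut from an inactive precursor by caspase 1 (GRCh37 chr2:113587328-113594356, minus strand). It stood at 0.733, 0.804 and 0.619 TPM in WT and at 1.96, 2.21 and 1.79 TPM in K700E. Every K700E library was above every WT library. Mean TPM was 0.719 ± 0.0935 (SD) without and 1.99 ± 0.213 (SD) with the substitution, 3 libraries each, which gives a log2 difference of 0.80 (SE 0.14, 95% interval 0.46 to 1.13) with a limma adjusted p of 0.0497. The WT values rest on 48, 70 and 54 read ends and the K700E values on 132, 170 and 142. The call was lost whichever library was left out, with limma adjusted p between 0.0813 and 0.298, the latter without WT replicate 3. Median-ratio scaling also ended it (0.0710).

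CXCL8 encodes interleukin 8, a chemokine that draws neutrophils (GRCh37 chr4:74606258-74609433, plus strand). It stood at 18.5, 3.83 and 10.4 TPM in WT and at 15.6, 15.2 and 16.3 TPM in K700E. The WT libraries spread over a 4.85-fold range and the K700E libraries over 1.07-fold, and WT replicate 1 was above all of K700E. The log2 difference of 0.71 (SE 0.45, 95% interval -0.34 to 1.76) had a limma adjusted p of 0.487. It moved to 1.17 without WT replicate 1 and to 0.16 without WT replicate 2.

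**Figure D2:**
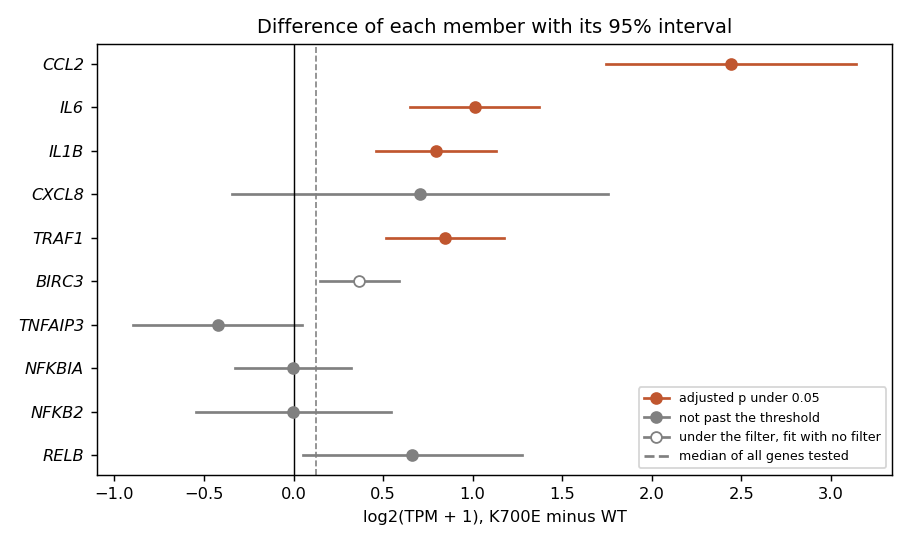
Log2 difference of K700E minus WT on log2(TPM + 1) for the 10 members, with 95% intervals from limma, the open circle for BIRC3 coming from the fit without the filter and the dashed line marking the median of all tested genes. The intervals of CCL2, IL6, IL1B, TRAF1, BIRC3 and RELB lie above 0, although neither BIRC3 nor RELB passed an adjusted threshold.

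TRAF1 encodes an adaptor of the TNF receptor family (GRCh37 chr9:123664671-123691451, minus strand). It stood at 0.422, 0.356 and 0.532 TPM in WT and at 1.70, 1.41 and 1.64 TPM in K700E, with no overlap between genotypes. Mean TPM was 0.437 ± 0.0892 (SD) without and 1.58 ± 0.153 (SD) with the substitution, 3 libraries each, which gives a log2 difference of 0.84 (SE 0.14, 95% interval 0.51 to 1.17) with a limma adjusted p of 0.0385. Its WT values rest on 82, 92 and 138 read ends. The call was lost whichever library was left out, with limma adjusted p between 0.0769 and 0.188, the latter without WT replicate 3. Median-ratio scaling also ended it (0.0517).

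BIRC3 encodes cIAP2, a ubiquitin ligase that binds TRAF proteins (GRCh37 chr11:102188181-102210134, plus strand). It stood at 0.161, 0.145 and 0.145 TPM in WT and at 0.619, 0.315 and 0.535 TPM in K700E. Its WT mean of 0.150 ± 0.00918 TPM and its K700E mean of 0.489 ± 0.157 TPM (SD, n = 3 each) both lay under the level for testing. Its 50, 60 and 60 read ends in WT and 198, 115 and 202 in K700E do not overlap, and neither do the exact Poisson 95% intervals of its TPM, which reach 0.212 at most in WT and start at 0.260 in K700E. Those intervals cover counting error only and treat read ends as independent. In WT replicate 1, however, 2994 genes held 2 read ends and 1139 held 1. Read ends were thus often counted in pairs, and the intervals are too narrow. In a fit of all genes without the filter the log2 difference was 0.37 with a limma adjusted p of 0.192. In limma-voom on recovered reads it was 1.60 with an adjusted p of 0.0605, where 1.39% of genes were called higher.

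Counting BIRC3, 5 members had all K700E libraries above all WT libraries and 5 overlapped. Among tested genes 19.0% had all K700E libraries above all WT libraries, and 4.99% had them all below. Among the 615 with a WT mean under 1 TPM, 62.4% had all K700E libraries above.

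**Figure D3:**
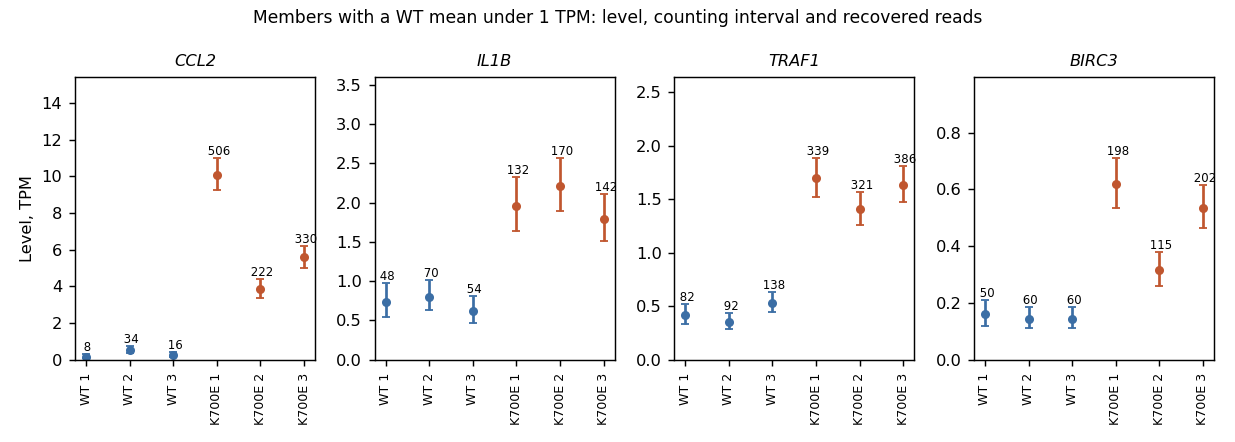
TPM of the 4 members with a WT mean under 1 TPM in each library, with exact Poisson 95% intervals that cover counting error only and the recovered read ends written above. The intervals of BIRC3 do not overlap between genotypes, but they treat read ends as independent and are too narrow where ends were counted in pairs.

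NFKBIA encodes IkB alpha, which binds NF-kB dimers and is itself induced by them (GRCh37 chr14:35870719-35873955, minus strand). It stood at 26.8, 33.1 and 31.3 TPM in WT and at 28.6, 30.3 and 31.8 TPM in K700E. The K700E libraries lay inside the WT range, and the means were 30.4 ± 3.26 and 30.2 ± 1.63 TPM (SD, n = 3 each). The log2 difference was -0.0040 (95% interval -0.33 to 0.32) with a limma adjusted p of 0.991.

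TNFAIP3 encodes A20, which removes ubiquitin chains from signalling proteins of the pathway (GRCh37 chr6:138188396-138204449, plus strand). It stood at 24.4, 30.3 and 26.7 TPM in WT and at 25.9, 15.6 and 19.4 TPM in K700E. K700E replicate 1 was inside the WT range and the other K700E libraries were below it. The means were 27.1 ± 2.98 and 20.3 ± 5.21 TPM (SD, n = 3 each). The log2 difference of -0.42 (SE 0.20, 95% interval -0.90 to 0.05) had a limma adjusted p of 0.353.

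NFKB2 encodes the p100 precursor of the p52 subunit (GRCh37 chr10:104153867-104162281, plus strand). The WT libraries held 12.03, 22.3 and 17.3 TPM, and the K700E libraries, at 18.8, 14.3 and 17.3 TPM, lay inside that range. The log2 difference was -0.00085 (95% interval -0.54 to 0.54) with a limma adjusted p of 0.999.

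RELB encodes the partner of p52 (GRCh37 chr19:45504707-45541456, plus strand). It stood at 0.939, 2.47 and 1.70 TPM in WT and at 4.03, 2.25 and 3.42 TPM in K700E. K700E replicate 2 was below WT replicate 2, and the other K700E libraries were above all of WT. The means were 1.71 ± 0.768 and 3.23 ± 0.905 TPM (SD, n = 3 each). The log2 difference of 0.66 (SE 0.26, 95% interval 0.05 to 1.28) had a limma adjusted p of 0.267.

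**Figure D4:**
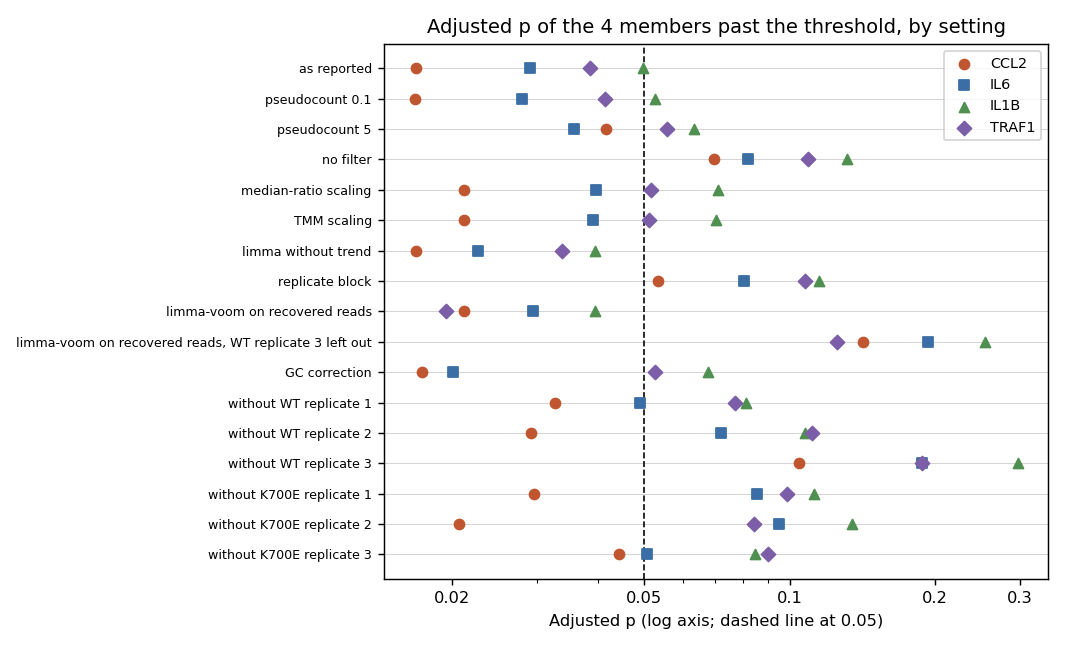
Adjusted p (log axis) of CCL2, IL6, IL1B and TRAF1 as reported and under each alternative, with a dashed line at 0.05. CCL2 stays below the line without any library except WT replicate 3, while IL1B and TRAF1 are above it whenever a library is left out.

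The rest of the pathway was measured from lists written with earlier results of these data known. Counts of called list genes below stand beside 1.15% of all tested genes called higher and 0.232% called lower. Among the 11 ligands of NF-kB activating receptors 3 were tested and none was called. IL1A, the other form of interleukin 1, stood at 3.39, 2.77 and 3.04 TPM in WT and at 21.3, 6.58 and 7.71 TPM in K700E, with a limma adjusted p of 0.124. LTB (lymphotoxin beta) was at 1.95, 1.94 and 2.40 TPM in WT and at 0.872, 1.31 and 1.60 TPM in K700E (limma adjusted p 0.248). From here on, a pair of values joined by an arrow is the WT mean and the K700E mean in TPM, each with its SD over 3 libraries. TNF, the classic inducer of the pathway, was at most 0.160 TPM in any library and was not tested.

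By limma on log2(TPM + 1), no gene was called among 12 tested receptors (of 21 measured), 24 adaptors and ubiquitin ligases, 12 kinases, 3 subunits and 22 inhibitors. Other settings called 3 of these genes, IL1R1, TNFRSF12A and MAP3K7. The receptors had a median log2 difference of 0.48 against 0.13 over all tested genes, and of 0.35 against -0.00060 with median-ratio scaling. IL1R1, the signalling receptor of interleukin 1, had 1.20 ± 0.0647 → 3.81 ± 1.42 and a limma adjusted p of 0.0664. It was called higher in limma-voom (adjusted p 0.0365) and with the GC correction (0.0454). The limma-voom call was lost without WT replicate 3 (adjusted p 0.191), and no limma fit with 1 library left out called IL1R1. TNFRSF12A, the receptor of TWEAK, overlapped between genotypes and had a limma adjusted p of 0.310. It was called higher with the GC correction (limma adjusted p 0.0357). That setting called 263 of 15129 genes higher and 231 lower, against 178 and 36 of 15493 without it. TNFRSF1B, a TNF receptor, had 35.0 ± 4.89 → 55.6 ± 1.05 (limma adjusted p 0.0828). RIPK1, a kinase recruited to the TNF receptor, had 25.1 ± 0.879 → 38.4 ± 2.91 (limma adjusted p 0.0842). BCL10, which links antigen receptors to IkB kinase, had 9.88 ± 1.17 → 15.0 ± 0.778 (limma adjusted p 0.128). Neither of these pairs overlapped between genotypes. MAP3K7 (TAK1), which activates IkB kinase, had 43.1 ± 7.50 → 27.8 ± 1.48 without overlap between genotypes (limma adjusted p 0.126). With the GC correction it was called lower, at a log2 difference of -0.74 and a limma adjusted p of 0.00911. TBK1, an IkB kinase relative, had 19.7 ± 3.51 → 25.5 ± 4.38 (limma adjusted p 0.393). The IkB kinase genes CHUK, IKBKB and IKBKG had limma adjusted p of 0.773, 0.779 and 0.983, and MAP3K14 0.519. The subunit NFKB1 had 9.70 ± 0.179 → 13.1 ± 1.79, without overlap between genotypes (limma adjusted p 0.255). RELA had 47.3 ± 13.7 → 53.9 ± 2.84 (limma adjusted p 0.659), and REL had 2.89 ± 0.619 → 3.29 ± 0.290 (0.712). Among the inhibitors NFKBIE, another IkB protein, had 8.15 ± 2.02 → 11.6 ± 1.38 (limma adjusted p 0.289), and TRIB3 had 296 ± 52.1 → 228 ± 15.6 (0.301).

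Of 46 other NF-kB induced genes 24 were tested and 2 rose, where 1.15% of all tested genes were called higher. CD44, a hyaluronan receptor, rose from 16.7, 16.4 and 15.1 TPM in WT to 144, 82.9 and 83.4 TPM in K700E. Its log2 difference was 2.56 (SE 0.23) with a limma adjusted p of 0.0102, and the call was lost without WT replicate 3 (0.0607). SDC4, a cell surface proteoglycan, rose from 14.7, 18.3 and 15.7 TPM to 27.6, 28.2 and 30.1 TPM (limma adjusted p 0.0493), and that call was lost whichever library was left out. Other settings called 2 more of this list higher. The cytokine LIF (0.0948 ± 0.0102 → 0.929 ± 0.440), under the filter, was called in limma-voom (adjusted p 0.0241) but not without WT replicate 3 (0.158). The cytokine subunit EBI3 (0.521 ± 0.384 → 2.84 ± 0.963) was called with the GC correction (limma adjusted p 0.0329, against 0.0629 without it). EBI3 passed the filter only through its K700E level. Of 17 tested partner transcription factors none was called. STAT3, which the IL6 receptor activates, had 101 ± 14.5 → 145 ± 16.1, and FOSB, an AP-1 subunit, had 1.25 ± 0.198 → 2.18 ± 0.266. Of 4 tested genes that receive or relay the cytokine signals 1 was called, beside the same 1.15% of all tested genes. IL6R, the receptor that binds IL6, rose from 0.849, 0.940 and 1.22 TPM in WT to 2.91, 2.57 and 3.15 TPM in K700E. The log2 difference was 0.96 (SE 0.15) with a limma adjusted p of 0.0331, and the call was lost whichever library was left out. By the same test no gene was called among 6 tested genes of interleukin 1 processing, which include AIM2, a DNA sensor (0.0523 ± 0.0208 → 2.03 ± 1.57), and CASP4, an inflammatory caspase (47.8 ± 20.8 → 28.1 ± 8.40). AIM2 was called higher with a pseudocount of 0.1 (limma adjusted p 0.0405), and it passed the filter only through its K700E level. Nor was any called among 11 genes of cytokine RNA decay, whose 2 smallest limma adjusted p were 0.437 for ZFP36 and 0.443 for HNRNPD.

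**Figure D5:**
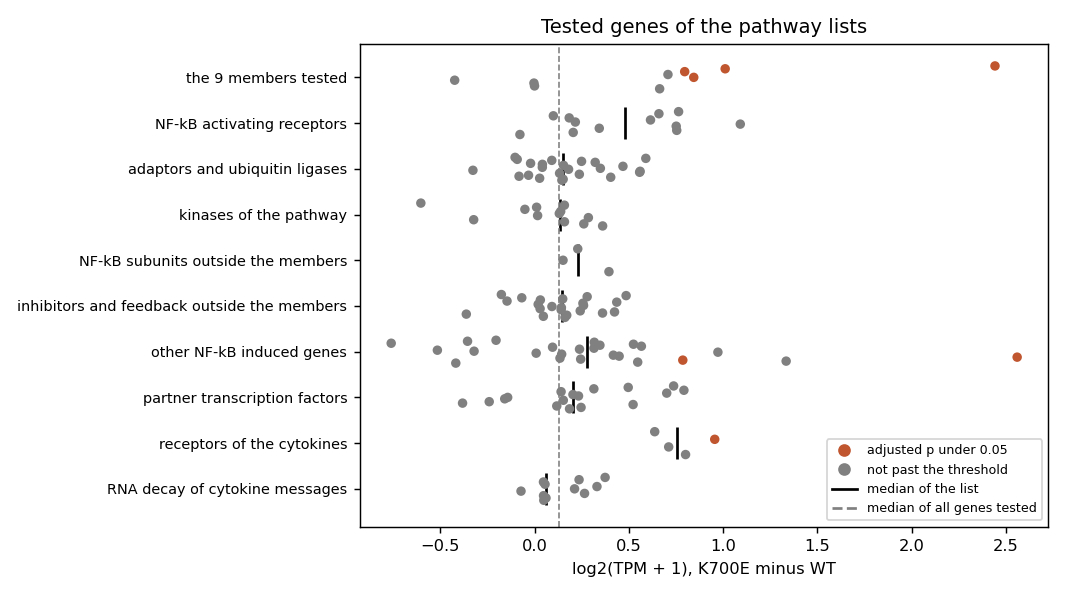
Log2 difference of K700E minus WT for the tested genes of the members and of 9 pathway lists, with 1 point per gene, a black line at each list's median (not drawn for the members) and a dashed line at the median of all tested genes. The median of the receptor list lies above the dashed line, and the medians of the kinase and RNA decay lists lie near it.

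The markers of other cell types that express these cytokines were measured beside the members, and their part in the results was not tested. For monocyte and macrophage markers, the summed level was 120 to 138 TPM in WT and 69.5 to 186 TPM in K700E over 9 measured genes, 2 of which were tested and neither called, and CD68 was listed at 0 in all libraries. LYZ, at 116 ± 8.01 and 112 ± 56.3 TPM, held most of that sum. ITGAM, an integrin chain, was at 6.70, 11.7 and 9.35 TPM in WT and at 1.96, 1.31 and 8.76 TPM in K700E. Its limma adjusted p was 0.263, and without K700E replicate 3 it was called lower (0.0393). CD14 stood at 0.209 ± 0.120 and 0.253 ± 0.111 TPM (SD, n = 3 each). For endothelial markers it was 0.906 to 0.944 and 0.371 to 1.07 TPM over 5 genes, none of which reached the filter. TEK, at 0.852 ± 0.0383 and 0.431 ± 0.314 TPM, held most of that sum. KDR, at 0.0237 ± 0.00590 and 0.168 ± 0.0150 TPM (SD, n = 3 each), was called higher in limma-voom (log2 difference 2.72, adjusted p 0.0239), where 4 of the list were tested, but not without WT replicate 3 (0.158). VWF and CLDN5 were higher in all K700E libraries than in any WT library, and TEK was lower. For fibroblast and stromal markers it was 1.99 to 3.12 and 6.34 to 12.2 TPM over 9 genes, 2 of them tested, with THY1 listed at 0 in all libraries. In that list COL1A2, a collagen chain, rose (0.0423 ± 0.00724 → 3.84 ± 1.87, limma adjusted p 0.0168), with the call lost without WT replicate 3 (0.104). Like the 3 members under 1 TPM in WT, COL1A2 passed the filter only through its K700E level. COL3A1, under the filter, was also higher in every K700E library, while DCN was lower in every one, at 0.267 ± 0.0427 and 0.181 ± 0.0119 TPM (SD, n = 3 each). For T and B cell markers it was 102 to 107 and 199 to 371 TPM over 8 genes, 3 of them tested. In that list CD3D, a chain of the T cell receptor complex, rose (99.8 ± 2.88 → 289 ± 85.6, limma adjusted p 0.0289), with the call kept only without WT replicate 1 or K700E replicate 2.

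The genes whose pattern over the 6 libraries was most like that of each called member are given as a description, by Pearson r of log2(TPM + 1) among 11861 genes. The libraries fall into 2 genotypes, so a gene that is higher in every K700E library can score high for that reason alone. For CCL2 they included LEMD1 and FGFR1, both at r of 0.999, with 725 genes above 0.9. For IL6 they were SLC2A3, TFPI2 and SPRY4, at r from 0.998 to 0.999, with 760 genes above 0.9. For IL1B they were SNRPD3, BFSP1 and OSTF1, from 0.994 to 0.997, and for TRAF1 MAST4, MRPL24 and WDR55, from 0.995 to 0.997.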

How the data were processed

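RNA of K562 cells was sequenced from mRNA libraries, per the labels' protocols. The authors deposited TPM per gene in 1 table per genotype, with gene lengths. The WT table is laid out like featureCounts output, per the file headers, and its column names end in the style of the aligner STAR, which the notes below do not name. Tools named in the submitters' processing notes are DESeq2, featureCounts 2.0.1, TopHat2 2.1 and cutadapt 2.10, with the build GRCh37. Which aligner and strand setting made each table is not given in the sources used here, so table and genotype cannot be told apart. Both tables listed the same 62111 gene IDs, of which 58604 (94.4%) matched a symbol. TPM multiplied by length gave whole read ends for 100% of genes within 0.01, so each library was scaled alone.

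Genes whose mean reached 1 TPM entered limma 3.58.1 (R 4.3.3) as log2(TPM + 1) (trended empirical Bayes, two-sided, genotype as the only term, Benjamini-Hochberg at 0.05). Values per library for members were set beside exact Poisson 95% intervals. Alternatives were pseudocounts of 0.1 and 5, TMM and median-ratio scaling, no filter or one at 5 TPM, no trend, a replicate block, limma-voom on recovered reads (mean of at least 10), a GC correction (97.7% of tested genes had a value) and leaving out each library. The AP-1 search was added after the data were seen. The procedure was tested on simulated data with independent libraries and with changes only in genes above the filter level. It therefore does not cover called genes under 1 TPM in WT, or a WT replicate that depends on the others. Its outcome is not reported here. The members and lists were chosen with earlier results of these data known. Named genes were the members, the called genes of each list (or the 2 with smallest adjusted p where none was called), NFKB1, RELA, REL, IKBKB, CHUK, IKBKG, MAP3K14, MAP3K7 and TNF, and the 3 genes most like each called member. Of these, 1 gene that this rule takes is not reported here. MRC1 and PECAM1 were not analysed here. Tables were joined with Python 3.11.15, pandas 2.3.3, numpy 2.4.6 and scipy 1.17.1, and figures drawn with matplotlib 3.10.9.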

Additional observations from a re-analysis of the deposited data

How the results depend on the processing

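The number of members called higher was 4. It was also 4 without the trend and in limma-voom, and 3 with a pseudocount of 0.1. It was 2 with a pseudocount of 5, with median-ratio scaling, with TMM scaling and with the GC correction. It was 0 without the filter, with a filter at 5 TPM, with the replicate block and in limma-voom without WT replicate 3. Leaving out 1 library gave 0 to 2. Over all genes 178 were called higher and 36 lower. Higher calls numbered 0 without the filter, 73 at 5 TPM, 59 with the replicate block, 309 in limma-voom and 0 in limma-voom without WT replicate 3, and 0 to 144 with 1 library left out. Lower calls numbered 0, 19, 8, 72 and 0 under the same settings in turn, 231 with the GC correction and 0 to 38 with 1 library left out. Without the filter 4891 of 38861 genes had an unadjusted limma p under 0.05. With WT replicate 3 left out, 1462 genes in limma and 2415 in limma-voom had an unadjusted p under 0.05, and both called 0. The replicate numbers share only a number: deviations of same-numbered libraries from their group means correlated at 0.28, -0.19 and 0.30, and not every library correlated best with its own number. The 4 called members were not tested at 5 TPM, because their means lie under it. For single members, 111 of 150 alternatives kept the side of the threshold, 39 kept direction and lost the call, and none reversed a called member. All 39 belong to the 4 called members, since the others had no call to lose. The call was kept in 12 of 16 alternatives for CCL2 and 8 of 16 for IL6. For IL1B it was kept in 2 of 16, and for TRAF1 in 3 of 16. The differences of NFKBIA and NFKB2 lie so near 0 that their sign changed between alternatives. Kappa B matches were found in 5.21% of promoters when exact and in 44.9% with 1 mismatch. Over 300 bases, a window that runs on past the start, 50.2% held a match with 1 mismatch. There 8 members held a match in place of 6, and the added matches reach past the start. Under 1 TPM the read ends limit precision, as for CCL2 in WT.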
